A study of Mus musculus with 15 samples.

Results

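The EGF receptor family and its ligands were described in tumour cells sorted from mouse basal cell carcinoma, a cancer of the skin, with and without treatment with vismodegib, which inhibits the Hedgehog transducer SMO. The set holds 10 genes chosen by name of 36528 genes in the files, 4 receptors (Egfr, Erbb2, Erbb3 and Erbb4) and 6 ligands (Areg, Ereg, Hbegf, Tgfa, Btc and Egf), found through a RefSeq table that gave a symbol to 31049 of the Entrez identifiers. Polyadenylated RNA was sequenced in 15 libraries, of which 4 were labelled control, 8 were collected at 6 days and 3 at 14 days of vismodegib. All groups, control included, carried the same 4 alleles. K14Cre-ER drives a Cre recombinase from the keratin 14 promoter of basal keratinocytes. It acts on Ptch1fl/fl, floxed alleles of the Hedgehog receptor, and on p53fl/fl, and Lgr5GFP reports the stem cell gene Lgr5. The series design calls the control mice untreated, while the treatment label does not say what they received. The labels give no ages and no sorting gate, and do not say that each library is a separate animal, so the p-values speak only for the spread between libraries, which may be technical.

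The EGF receptor is a receptor tyrosine kinase of keratinocytes and many other epithelial cells that pairs with itself or with its relatives when a ligand binds. ERBB2 has no known ligand of its own and acts as a partner for the others, ERBB3 has little kinase activity and recruits PI3 kinase, and ERBB4 is a kinase receptor for neuregulins and some EGF-like ligands. The ligands are made as membrane proteins and released mainly by the proteases ADAM10 and ADAM17, after which signals pass through RAS, RAF and ERK or through PI3 kinase. In mouse skin, Egfr and its ligands are known for their part in hair follicle growth and in the balance of proliferation and differentiation in the epidermis.

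Total counts ran from 27336935 to 256569828 per library, and a floor of 3 counts equalled 0.105 CPM (counts scaled to library size) or less, which covers counting error only. Levels within a gene are given as CPM scaled by TMM factors, and levels between genes as the deposited RPKM, which is corrected for gene length. Keratinocyte markers were high in every library, with a summed level of 24310 to 39640 CPM in control, 32150 to 46830 CPM at 6 days and 34720 to 48610 CPM at 14 days. Markers of other cell types summed lower. Melanocyte markers had 44.1 to 687, 84.25 to 900 and 57.7 to 396 CPM in the same order. Sebocyte markers had 99.2 to 309, 74.8 to 255 and 99.4 to 311 CPM. Langerhans markers had 11.85 to 93.7, 15.7 to 28.15 and 28.0 to 81.95 CPM. Schwann cell markers had 5.14 to 46.0, 7.52 to 53.8 and 3.77 to 18.1 CPM. The first digits of the submitters' sample identifiers fell into 3 ranges. Range A held control replicates 1 to 3 and 6-day replicates 1, 3, 4, 6 and 8, and range B held control replicate 4 and 6-day replicates 2, 5 and 7. Range C held only the 3 libraries at 14 days, so identifier range and 14 days of treatment cannot be told apart. The labels do not say what the ranges mean. The libraries of range B lay apart from the rest on the first principal component, which held 32.8% of the variance. As a check of the treatment, 2 of 3 Hedgehog readouts passed the test at 14 days against control. Hhip fell by 2.80 (adjusted p = 0.0394) and Ptch1 fell by 3.62 (adjusted p = 0.0454) on the log2 scale, and Gli1 had a log2 fold change of -2.78 (adjusted p = 0.0848). Ptch1 is also the floxed gene of these mice, and counts per gene do not separate recombined from intact alleles. At 6 days against control 1 of 3 passed. Hhip fell by 2.47 (adjusted p = 0.0362), Ptch1 had a log2 fold change of -2.12 (adjusted p = 0.159) and Gli1 one of -0.78 (adjusted p = 0.747). At 6 days the change in Hhip no longer passed without control replicate 2 or 3 or 6-day replicate 1, 2, 3 or 5 (adjusted p up to 0.162). At 14 days it no longer passed without control replicate 2 or 3, 6-day replicate 1 or 3 or any 14-day library (adjusted p up to 0.159), and that in Ptch1 without 11 of the 15 libraries in turn, among them 3 of 4 controls and each 14-day library (adjusted p up to 0.182).

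Erbb2 was the one member that passed the test, and it was higher at 14 days of vismodegib than in control and than at 6 days. In control Erbb2, which encodes the partner receptor with no known ligand, had 276, 298, 211 and 247 CPM in replicates 1 to 4. At 6 days it ranged from 255 to 325 CPM with a median of 278 CPM, and at 14 days it had 594, 383 and 411 CPM in replicates 1 to 3. All 3 libraries at 14 days lay above every library of both other groups, and the 6-day libraries overlapped the controls.

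Erbb2 averaged 463 ± 115 CPM at 14 days (SD, n = 3) against 258 ± 37.9 CPM in control (n = 4), a log2 fold change of 0.84 (SE 0.18, 95% interval 0.47 to 1.22) or 1.79-fold (edgeR, adjusted p = 0.0126). Against 279 ± 23.3 CPM at 6 days (n = 8) the log2 fold change at 14 days was 0.73 (SE 0.15, 95% interval 0.41 to 1.05) or 1.66-fold (adjusted p = 0.0219). Both comparisons share the 14-day libraries. At 6 days against control the log2 fold change of Erbb2 was 0.11 (SE 0.14, 95% interval -0.19 to 0.41, adjusted p = 0.882). Over all 18751 genes tested, 6.6% passed the test at 14 days against control (3.25% higher) and 3.89% at 14 against 6 days (2.14% higher). The groups did not overlap, with 14 days higher, for 11.7% of genes at 14 days against control and for 5.42% at 14 against 6 days.

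The Erbb2 call rests in part on single libraries. Without 14-day replicate 1, which had the highest level, the log2 fold change was 0.63 against control (adjusted p = 0.0771) and 0.52 against 6 days (adjusted p = 0.25), while without control replicate 3 it was 0.75 against control (adjusted p = 0.0509). In a fit of the 14-day and control libraries alone it was 0.84 (adjusted p = 0.0931). Without 14-day replicate 3 it was 0.82 against 6 days (adjusted p = 0.065). Without the 4 libraries of range B the log2 fold change was 0.81 against control (adjusted p = 0.0238) and 0.68 against 6 days (adjusted p = 0.0407), a setting added after the data were seen.

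**Figure D1:**
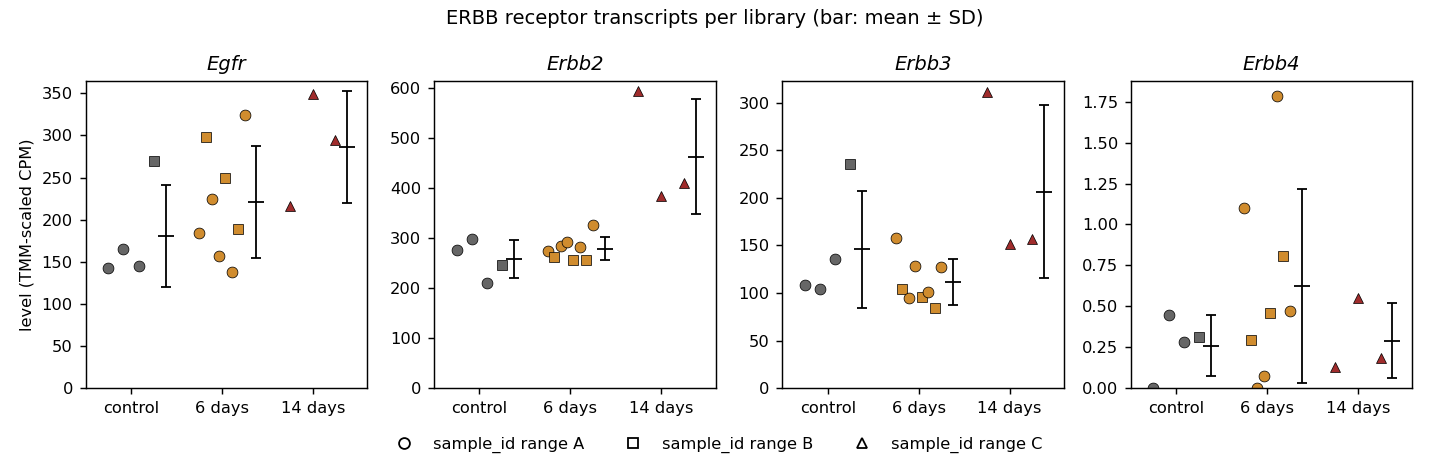
Level of each of the 4 receptor genes (TMM-scaled CPM, 1 panel a gene) in each library, grouped by control, 6 days and 14 days of vismodegib, with points for libraries and bars for mean and SD. The 3 Erbb2 points at 14 days, 383 to 594 CPM, lie above all others, and Erbb4 lies below 2 CPM in every library.

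Some markers of differentiated epidermis and of myeloid cells were also higher at 14 days. The 8 markers of suprabasal epidermis, the differentiating layers, summed to 606 to 2018 CPM in control, 630 to 1707 CPM at 6 days and 7000, 522 and 2303 CPM at 14 days in replicates 1 to 3. Of these 8, 1 passed the test at 14 days against control, with 5 positive and 3 negative log2 fold changes, and 2 passed at 14 against 6 days, with 6 positive and 2 negative. Over all genes 6.6% and 3.89% passed in these comparisons. The 1 marker called against control was Krt10, a keratin of those layers. It had 3011, 167 and 1016 CPM at 14 days against 239 ± 139 CPM in control, and rose (adjusted p = 0.0452). Calml3, named after its values were seen, averaged 30.0 ± 21.1 CPM at 14 days against 96.5 ± 58.2 CPM in control (log2 fold change -1.69, adjusted p = 0.146). Replicate 1 at 14 days had the highest Erbb2 level and the highest suprabasal sum, whereas replicate 2 had the lowest suprabasal sum of all 15 libraries and an Erbb2 level of 383 CPM, above the highest level of 325 CPM in the control and 6-day libraries. The 8 myeloid markers summed to 4.13 to 15.5 CPM in control, 1.55 to 9.79 CPM at 6 days and 23.4 to 35.7 CPM at 14 days. Of the 8 myeloid markers, 2 rose at 14 days against control and 4 against 6 days, beside 3.25% and 2.14% of all genes. Fibroblast markers summed to 9.77 to 21.7 CPM in control, 4.06 to 19.9 CPM at 6 days and 5.32 to 8.83 CPM at 14 days, and 0 of 6 tested passed in either 14-day comparison in edgeR, with 2 at an unadjusted p under 0.05 in each. DESeq2 called 2 of these 6 in each comparison, and limma-voom called 1 at 14 days against control and 2 at 14 against 6 days. Over all genes 23.3% and 23.1% had an unadjusted p under 0.05 in these comparisons. DESeq2 called 14.7% and 14.8% of all genes, and limma-voom 22.4% and 25%. The part of these markers in the Erbb2 result was not tested, and in bulk RNA fewer cells of a type and less RNA per cell cannot be told apart.

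Erbb2 lies on chromosome 11 at 98412484 to 98437716 of GRCm38, and Egfr on the same chromosome at 16752203 to 16913907. Their promoters are shown because these were the receptor genes with the highest 14-day to control fold changes. The windows run from 250 bases before to 50 bases after the start of each gene on the + strand, from RefSeq on GRCm38.p6, at chr11:98412234-98412533 for Erbb2 and chr11:16751953-16752252 for Egfr. Capitals mark matches on either strand to 4 searched motifs. These were GGGCGG, known as the GC box, then CCAAT, the box bound by NF-Y, then GCCNNNGGC, a motif bound by AP-2 factors, and lastly TATAAA, the core of the TATA box.
Erbb2 promoter: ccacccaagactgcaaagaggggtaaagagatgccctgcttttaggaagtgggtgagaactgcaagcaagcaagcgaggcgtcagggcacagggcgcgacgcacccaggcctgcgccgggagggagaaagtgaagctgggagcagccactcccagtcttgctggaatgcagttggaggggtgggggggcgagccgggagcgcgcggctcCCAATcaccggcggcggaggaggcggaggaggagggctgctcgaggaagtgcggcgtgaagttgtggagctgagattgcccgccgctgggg
Egfr promoter: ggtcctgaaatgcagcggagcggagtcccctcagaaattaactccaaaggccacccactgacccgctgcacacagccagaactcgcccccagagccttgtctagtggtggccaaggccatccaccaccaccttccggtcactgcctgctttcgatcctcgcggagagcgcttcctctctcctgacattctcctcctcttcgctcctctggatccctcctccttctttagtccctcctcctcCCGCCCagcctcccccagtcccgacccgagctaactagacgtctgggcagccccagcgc
The Erbb2 window was 66.0% G and C and held 1 CCAAT match, a motif present in 37.41% of 32851 mouse promoter windows of this length. The Egfr window was 62.3% G and C and held 1 GGGCGG match on the reverse strand, a motif in 35.66% of windows. Neither window held the AP-2 motif or the TATA motif, which were found in 16.59% and 13.62% of windows. The median window had 52.67% G and C, and the printed matches do not overlap one another.

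Egfr, the founding member of the family, had 142, 166, 145 and 269 CPM in control. It ranged from 138 to 324 CPM with a median of 207 CPM at 6 days, and had 216, 349 and 294 CPM at 14 days. The 14-day libraries all lay above 3 of 4 controls, and control replicate 4 lay within their range. Egfr averaged 286 ± 66.6 CPM at 14 days against 181 ± 60.0 CPM in control, a log2 fold change of 0.66 (95% interval 0.01 to 1.32, adjusted p = 0.206) that did not pass the test. At 6 days against control its log2 fold change was 0.29 (95% interval -0.24 to 0.82, adjusted p = 0.755).

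Erbb3, at chromosome 10, 128567523 to 128589635, encodes the receptor that recruits PI3 kinase. It had 108, 105, 136 and 235 CPM in control, 84.2 to 158 CPM with a median of 103 CPM at 6 days, and 312, 152 and 156 CPM at 14 days. Its 14-day levels overlapped the controls, and 2 of 3 lay below the highest 6-day library. The log2 fold change of Erbb3 was 0.88 at 14 against 6 days (95% interval 0.31 to 1.46, adjusted p = 0.0773) and 0.50 at 14 days against control (95% interval -0.17 to 1.17, adjusted p = 0.363), so neither passed. At 6 days against control it was -0.38 (95% interval -0.92 to 0.15, adjusted p = 0.623). Within range A the 6-day value of Erbb3 was 0.06 (adjusted p = 0.921), and within range B, with 1 control library, it was -1.32 (adjusted p = 0.0367). That control library had the highest Erbb3 level of the controls, and the fit assumes that it varies like the 6-day libraries. The difference between the ranges had an adjusted p of 0.178 over all genes.

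Erbb4, the neuregulin receptor kinase at chromosome 1, 68031884 to 69108576, had 0 counts in 2 libraries, 1 at 6 days and 1 control. It had at most 0.45 CPM in control, at most 1.79 CPM at 6 days and 0.13, 0.55 and 0.19 CPM at 14 days. Its log2 fold changes of 1.25 at 6 days and 0.15 at 14 days against control did not pass the test (adjusted p = 0.754 and 0.96).

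On the RPKM scale, Erbb2 was the highest of the 4 receptors in 14 of 15 libraries, and in control replicate 4 Erbb3 was higher. Erbb2 had 35.7 to 49.95 RPKM in control, 41.6 to 53.7 RPKM at 6 days and 99.4, 63.2 and 68.4 RPKM at 14 days. The 4 receptors together had 83.2 to 128 RPKM in control, 82.3 to 121 RPKM at 6 days and 138 to 192 RPKM at 14 days, so the 14-day libraries lay above all others. The share of Erbb2 in that sum was 33.1 to 53.7% in control, 42.2 to 54.9% at 6 days and 45.7 to 51.8% at 14 days, with overlapping groups. Egfr held 21.0 to 27.6% in control, 20.6 to 36.8% at 6 days and 14.4 to 31.8% at 14 days. Erbb3 held 23.4 to 39.3% in control, 20.6 to 32.1% at 6 days and 22.5 to 33.8% at 14 days. The ranges of Egfr and Erbb3 overlapped in every group. Within each control library Erbb3 held the larger share, with 25.9, 23.4, 34.4 and 39.3% in replicates 1 to 4. Egfr held 20.95, 22.8, 22.6 and 27.6% in the same libraries. Over all 15 libraries Egfr ranked 2 among the receptors in 7 and 3 in 8, and both treated groups held both orders. The order was not tested.

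**Figure D2:**
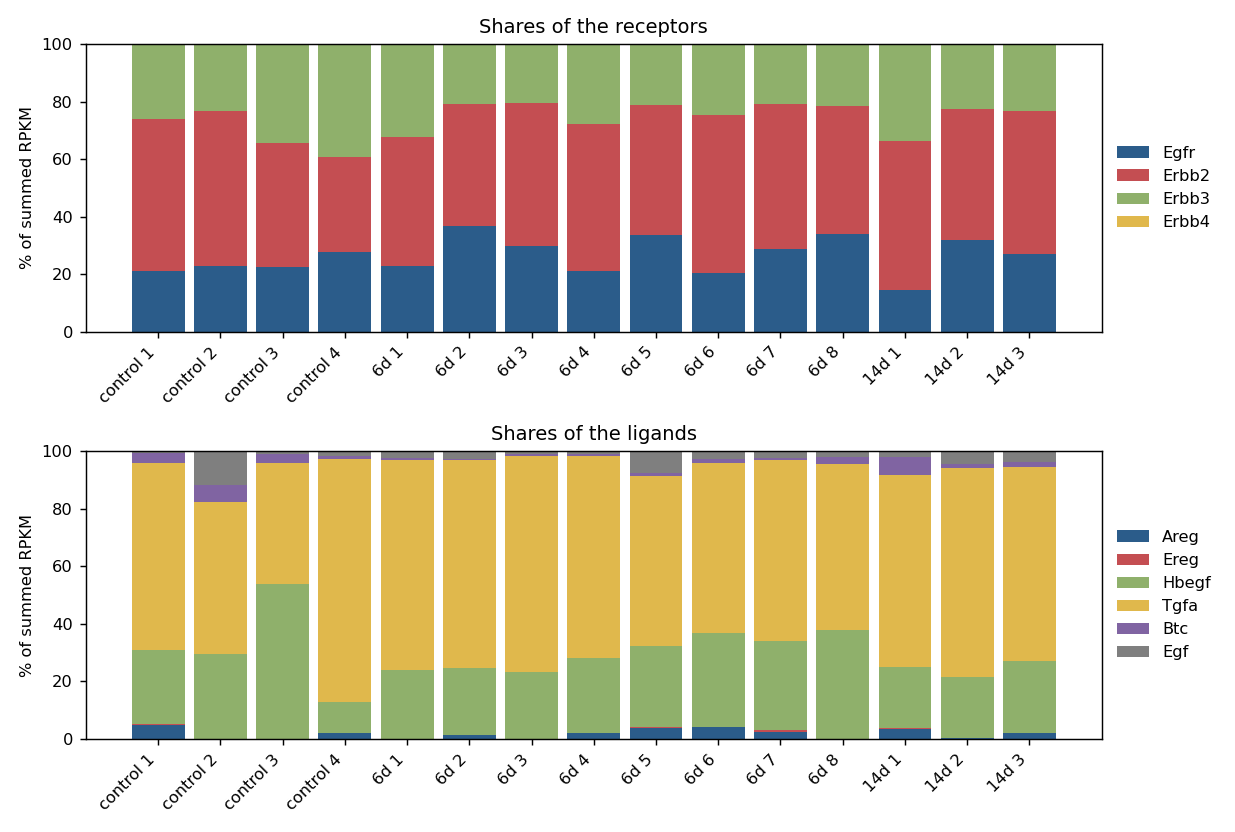
Share of each receptor in the summed RPKM of 4 receptors and of each ligand in the summed RPKM of 6 ligands, in percent, 1 stacked bar a library. Erbb2 makes up 33.1 to 54.9% of the receptor sum over all libraries, and Tgfa makes up 42.3 to 84.7% of the ligand sum.

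Among the 6 ligands of the set, Tgfa and Hbegf made up most of the summed RPKM, and none passed the test in any comparison in edgeR. Tgfa, at chromosome 6, 86195038 to 86275744, encodes transforming growth factor alpha, a ligand of the EGF receptor made by keratinocytes. It had 55.2, 17.1, 11.4 and 60.9 CPM in control, 23.5 to 58.7 CPM with a median of 41.8 CPM at 6 days and 47.0, 35.0 and 33.8 CPM at 14 days. The controls held both the lowest and the highest Tgfa libraries, and both treated groups lay within their range. The log2 fold change of Tgfa was 0.09 at 14 days (95% interval -0.92 to 1.11, adjusted p = 0.932) and 0.19 at 6 days (95% interval -0.63 to 1.02, adjusted p = 0.936) against control.

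Hbegf, at chromosome 18, 36504927 to 36515805, encodes heparin-binding EGF-like growth factor, which binds EGFR and ERBB4. It had 12.3, 5.41, 8.15 and 4.26 CPM in control, 6.25 to 16.2 CPM at 6 days and 8.44, 5.70 and 7.02 CPM at 14 days, with all groups overlapping. Its log2 fold change was -0.09 at 14 days (95% interval -0.91 to 0.72, adjusted p = 0.915) and 0.38 at 6 days (95% interval -0.28 to 1.05, adjusted p = 0.731) against control.

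Per length, Tgfa was the highest of the 6 ligands in 14 of 15 libraries and Hbegf in control replicate 3. The summed RPKM of the 6 ligands was 5.42 to 17.3 in control, 7.74 to 18.0 at 6 days and 9.40 to 13.9 at 14 days, so all groups overlapped. The share of Tgfa was 42.3 to 84.7% in control, 57.5 to 75.1% at 6 days and 66.8 to 72.6% at 14 days. Group mean RPKM at 14 days was 7.59 for Tgfa and 2.47 for Hbegf, and below 0.5 for every other ligand of the 6. Outside the set, the neuregulin gene Nrg4 averaged 5.42, 5.47 and 4.17 RPKM in control, at 6 days and at 14 days. These means lay above those of Hbegf (2.70, 3.42 and 2.47 RPKM) and below those of Tgfa (7.30, 8.10 and 7.59 RPKM). Epgn, an EGFR ligand gene also outside the set, had 7.24, 0.11 and 1.485 RPKM at 14 days in replicates 1 to 3.

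**Figure D3:**
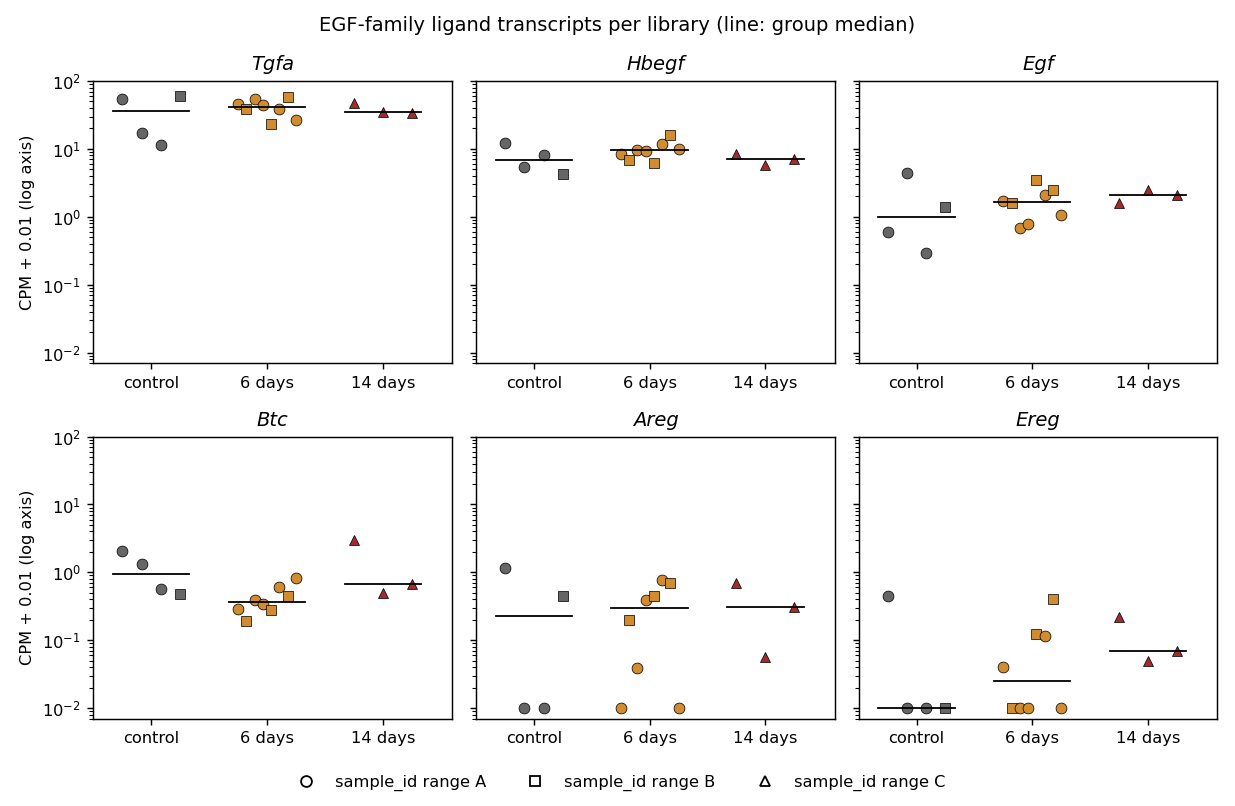
Level of each of the 6 ligand genes (TMM-scaled CPM, 1 panel a gene) in each library at control, 6 days and 14 days. Points are libraries and lines are group medians. The axis is logarithmic, and a small constant was added to every level so that libraries without counts can be drawn. Tgfa and Hbegf lie above 4 CPM in all libraries, and no ligand has a 14-day group that lies apart from both others.

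Btc, Areg and Ereg neighbour each other on chromosome 5 with Epgn, an EGFR ligand outside the set, between 91027517 and 91402994. Btc encodes betacellulin, which binds EGFR and ERBB4. It had 2.06, 1.31, 0.56 and 0.47 CPM in control, 0.18 to 0.80 CPM at 6 days and 2.93, 0.49 and 0.66 CPM at 14 days. The 6-day libraries were low as a group and overlapped the controls at 0.47 and 0.56 CPM. The log2 fold change of Btc was -1.43 at 6 days against control (95% interval -2.64 to -0.22, adjusted p = 0.28) and 1.74 at 14 against 6 days (95% interval 0.46 to 3.03, adjusted p = 0.108).

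Areg, which encodes amphiregulin, an EGFR ligand of keratinocytes, had at most 1.17 CPM, in control replicate 1, and 0 counts in 4 of 15 libraries. Ereg, which encodes epiregulin, a ligand of EGFR and ERBB4, had at most 0.43 CPM and was left out by the filter on low counts. Epgn, which encodes epigen, had at most 1.87 CPM in control, at most 6.41 CPM at 6 days and 14.8, 0.23 and 3.04 CPM at 14 days. The 14-day libraries of Epgn ranged widely, and its log2 fold change of 3.002 against control did not pass (adjusted p = 0.251). Egf, at chromosome 3, 129677574 to 129755322, encodes the founding ligand. It had 0.60, 4.37, 0.28 and 1.38 CPM in control, 0.68 to 3.50 CPM at 6 days and 1.59, 2.45 and 2.11 CPM at 14 days, with a log2 fold change of 0.31 at 14 days against control (adjusted p = 0.85).

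Over the set, 9 of 10 genes passed the filter. At 6 days against control 0 of 9 passed the test in edgeR, DESeq2 and limma-voom, against 1.26%, 4.52% and 4.41% of all genes with these tools, and 1 of 9 (Btc) had an unadjusted p under 0.05, against 12.7% of all genes. Groups that did not overlap numbered 0 of 9, against 2.69% of all genes. At 14 days against control 1 of 9 passed in edgeR, 1 in DESeq2 and 2 in limma-voom, against 6.6%, 14.7% and 22.4% of all genes. An unadjusted p under 0.05 was found for 2 of 9 (Erbb2 and Egfr) against 23.3% of all genes. Groups did not overlap for 1 of 9, against 23.4% of all genes. At 14 against 6 days 1 of 9 passed in edgeR, 3 in DESeq2 and 2 in limma-voom, against 3.89%, 14.8% and 25% of all genes. An unadjusted p under 0.05 was found there for 3 of 9 (Erbb2, Erbb3 and Btc) against 23.1% of all genes. Groups did not overlap for 1 of 9, against 11.7% of all genes. The median log2 fold change of the 9 genes was 0.11 at 6 days and 0.31 at 14 days against control, and 0.24 at 14 against 6 days. Over all genes it was 0.03, -0.02 and -0.06 in the same comparisons. For 0 of 5 ligands did a comparison pass in edgeR. DESeq2 called 1 ligand, Btc, at 14 against 6 days (adjusted p = 0.0461), and limma-voom called 0.

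**Figure D4:**
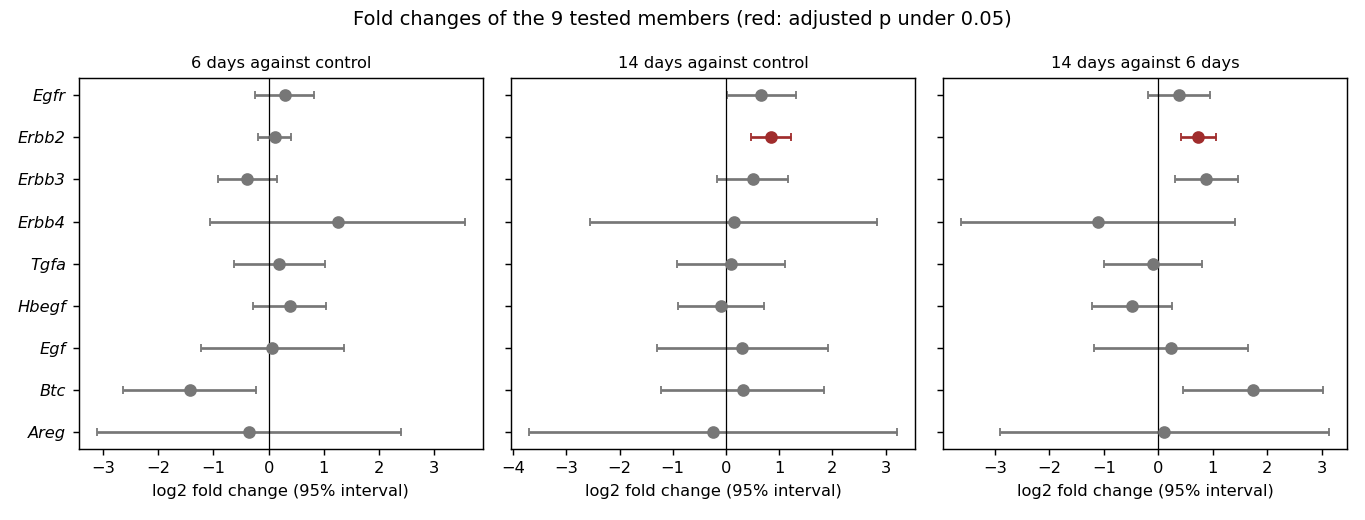
Log2 fold change of the 9 tested members with 95% intervals in the 3 comparisons, from 1 edgeR fit over 15 libraries. The interval of Erbb2 lies above 0 at 14 days against control (0.47 to 1.22) and at 14 against 6 days (0.41 to 1.05), and red points mark adjusted p under 0.05.

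The other ligands of the family were Epgn, given above, and the neuregulins, each of which binds ERBB3, ERBB4 or both. Nrg4 had 24.7, 21.9, 25.5 and 27.2 CPM in control, 18.8 to 30.6 CPM at 6 days and 19.9, 19.3 and 19.3 CPM at 14 days, so the 14-day libraries lay below every control. Its log2 fold change of -0.35 at 14 days against control did not pass (adjusted p = 0.261). In that comparison groups did not overlap, in either direction, for 23.4% of all genes. Nrg1 had 15.5, 0.18, 0.12 and 0.13 CPM in control, 0.49 to 9.48 CPM at 6 days and 6.89, 0.34 and 1.11 CPM at 14 days, with 1 control library far above the other 3. Nrg2 had at most 2.03 CPM, and Nrg3 was not tested. Of these 4 tested genes, Epgn included, 0 passed in any comparison in edgeR, 1 had an unadjusted p under 0.05 at 14 against 6 days (Nrg4), and DESeq2 and limma-voom each called 1 there. Over all genes 23.1% had such a p there, and DESeq2 called 14.8% and limma-voom 25%.

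Of 9 genes for the release of ligands, 8 were tested and 1, Timp3, passed, at 6 days against control, where 1.26% of all genes passed. Timp3 encodes a tissue inhibitor of metalloproteinases that blocks ADAM17. It had 760, 574, 790 and 841 CPM in control, 111 to 438 CPM at 6 days and 302, 260 and 412 CPM at 14 days, so every treated library lay below every control. Against control, groups did not overlap in either direction for 2.69% of all genes at 6 days and for 23.4% at 14 days. At 6 days Timp3 averaged 216 ± 103 CPM against 741 ± 117 CPM in control, and fell by 1.78 on the log2 scale (SE 0.28, 3.44-fold lower, adjusted p = 0.00878). It was called in all 15 fits that left out 1 library, and within range B, with 1 control library, its log2 fold change was -1.64 (adjusted p = 0.147). At 14 days against control its log2 fold change was -1.19 (adjusted p = 0.0726). The proteases did not pass. Adam17 averaged 135 ± 31.6 CPM at 14 days against 94.3 ± 8.66 CPM in control (log2 fold change 0.52, adjusted p = 0.103), and Adam10 averaged 155 ± 57.0 CPM at 14 days against 124 ± 37.8 CPM in control (0.32, adjusted p = 0.489). Against 6 days, the log2 fold change at 14 days was 0.47 for Adam17 (adjusted p = 0.0998) and 0.72 for Adam10 (adjusted p = 0.0798). Both proteases are named after their values were seen. At 14 days against control 0 of 8 passed in edgeR and 4 of 8 had an unadjusted p under 0.05, beside 6.6% and 23.3% of all genes. DESeq2 called 1 and limma-voom 4, beside 14.7% and 22.4% of all genes with these tools.

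Genes that respond to ERK signalling, the pathway below the receptors, numbered 16, and 1 passed at 6 days, where 1.26% of all genes passed. Phlda1, an early response gene to growth factors, had 151 to 399 CPM at 6 days against 50.9, 62.6, 114 and 74.1 CPM in control, so all 8 treated libraries lay above the controls. Groups did not overlap, with 6 days higher, for 1.22% of all genes. Phlda1 averaged 247 ± 75.3 CPM at 6 days against 75.3 ± 27.3 CPM in control and rose by 1.72 on the log2 scale (SE 0.37, adjusted p = 0.0362). It was called in 4 of the 15 fits that left out 1 library. The call was lost without any 1 of the 4 controls, without 6-day replicate 1, 2, 3, 5, 6 or 8 and without 14-day replicate 3 (adjusted p up to 0.12). At 14 days Phlda1 had 46.3, 212 and 152 CPM, and its log2 fold change of 0.86 against control did not pass (adjusted p = 0.228).

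Dusp6, an ERK phosphatase that is induced by ERK itself, had 186, 186, 188 and 250 CPM in control, 80.3 to 372 CPM at 6 days and 51.5, 92.1 and 77.4 CPM at 14 days. The 14-day libraries lay below every control, but the log2 fold change of -1.46 did not pass (adjusted p = 0.0534). Groups did not overlap, in either direction, for 23.4% of all genes in this comparison. Etv4, a transcription factor gene of the same list, averaged 24.0 ± 6.22 CPM at 14 days against 143 ± 94.1 CPM in control (-2.57, adjusted p = 0.0911). Both genes are named after their values were seen. The log2 fold change was positive for 10 of 16 ERK response genes at 6 days against control, with a median of 0.21 beside 0.03 over all genes. It was negative for 12 of 16 at 14 days against control, with a median of -0.44 beside -0.02 over all genes, and for 15 of 16 at 14 against 6 days, with a median of -1.08 beside -0.06. In edgeR 0 of 16 passed in either 14-day comparison, and 7 of 16 had an unadjusted p under 0.05 in each. Over all genes 23.3% had such a p at 14 days against control and 23.1% at 14 against 6 days. DESeq2 called 7 of 16 and limma-voom 8 of 16 at 14 days against control, where 14.7% and 22.4% of all genes were called. At 14 against 6 days DESeq2 called 6 of 16 and limma-voom 5 of 16, where 14.8% and 25% of all genes were called, so the limma-voom count was near that of all genes.

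Immediate early genes, which respond to growth factors and also to handling of cells, numbered 15 and share Egr1 with the ERK list. Egr3, a transcription factor gene, had 33.7, 30.7 and 36.7 CPM at 14 days against 69.8, 105, 89.1 and 169 CPM in control, and fell by 1.68 on the log2 scale (adjusted p = 0.0291). Zfp36, which encodes a protein that destabilises mRNAs, had 36.4, 43.1 and 43.2 CPM at 14 days against 76.4 to 177 CPM at 6 days, and fell by 1.39 (adjusted p = 0.0284). Leaving out any 14-day library ended both calls (adjusted p up to 0.115 for Egr3 and 0.243 for Zfp36), as did leaving out control replicate 2 (0.0503) or 4 (0.0588) for Egr3. In each of these comparisons the other 14 genes did not pass, and over all genes 6.6% and 3.89% passed. At 14 days against control 2 of 15 had an unadjusted p under 0.05, and DESeq2 called 2 and limma-voom 1. Over all genes these shares were 23.3%, 14.7% and 22.4%. At 14 against 6 days 8 of 15 had such a p, and DESeq2 called 5 and limma-voom 7. Over all genes the shares there were 23.1%, 14.8% and 25%. The median log2 fold change of the list was 0.45 at 6 days against control, where 12 of 15 were positive, -0.59 at 14 days against control, where 12 were negative, and -0.92 at 14 against 6 days, where 14 were negative. Over all genes the median was 0.03, -0.02 and -0.06 in the same order. At 6 days 0 of 15 passed in edgeR, 6 had an unadjusted p under 0.05, and DESeq2 called 0 and limma-voom 1. Over all genes 12.7% had such a p there, and DESeq2 called 4.52% and limma-voom 4.41%.

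Genes that restrain the receptors, such as Errfi1, Lrig1 and Cbl, numbered 14, and 0 passed in any comparison in edgeR. In the 3 comparisons 0, 4 and 1 of 14 had an unadjusted p under 0.05, DESeq2 called 0, 1 and 1, and limma-voom called 0, 3 and 4 (in the order of 6-day to control, 14-day to control and 14-day to 6-day differences). Of 19 adaptor, RAS-MAPK and PI3 kinase genes 0 passed in edgeR, with 3, 4 and 3 at an unadjusted p under 0.05, 2, 0 and 1 called by DESeq2 and 2, 2 and 4 by limma-voom in the same order. Over all genes 12.7%, 23.3% and 23.1% had such a p in the same order. DESeq2 called 4.52%, 14.7% and 14.8% of all genes, and limma-voom 4.41%, 22.4% and 25%. The median log2 fold change at 14 days against control was -0.12 for the restraining genes and 0.01 for the adaptor genes.

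Across 15 libraries and 10073 genes of at least 10 CPM, the named genes whose log2(CPM + 1) was most like that of Erbb2 were Dnm2, Txndc11 and Exoc6b, with Pearson r of 0.963, 0.947 and 0.940 and Spearman rho of 0.754, 0.904 and 0.839. The 14-day libraries entered this choice, so the levels of these genes are a description, with no test. Without the 14-day libraries, over 12 libraries, r was 0.732, 0.751 and 0.814. Dnm2 encodes dynamin 2, a GTPase that cuts off endocytic vesicles. It averaged 179 CPM in control, 194 CPM at 6 days and 305 CPM at 14 days. Exoc6b, a subunit gene of the exocyst that tethers secretory vesicles, averaged 70.8 CPM in control, 78.2 CPM at 6 days and 154 CPM at 14 days. Txndc11, a gene for a thioredoxin-domain protein, averaged 42.5 CPM in control, 41.2 CPM at 6 days and 62.1 CPM at 14 days.

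Neighbours of Erbb2 within 50000 bases were looked at after its values were seen, and 0 of 5 tested passed in either 14-day comparison in edgeR, with 1 at an unadjusted p under 0.05 in each. DESeq2 called 0 in both, and limma-voom called 0 against control and 1, Stard3, against 6 days. Over all genes 23.3% and 23.1% had such a p in these comparisons, and limma-voom called 22.4% and 25%. Mien1, which overlaps Erbb2 by 9 bases, averaged 25.8 ± 3.51 CPM at 14 days against 38.2 ± 11.2 CPM in control (log2 fold change -0.57, adjusted p = 0.166, unadjusted p = 0.0313). Grb7, which encodes an adaptor that binds ERBB2, averaged 62.8 ± 28.5 CPM at 14 days against 46.1 ± 7.87 CPM in control (0.45, adjusted p = 0.339), and its log2 fold change at 14 against 6 days was 0.55 (adjusted p = 0.179, unadjusted p = 0.0336). Stard3, a cholesterol transport gene, averaged 50.4 ± 3.89 CPM at 14 days against 49.95 ± 4.46 CPM in control (0.01, adjusted p = 0.974).

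**Figure D5:**
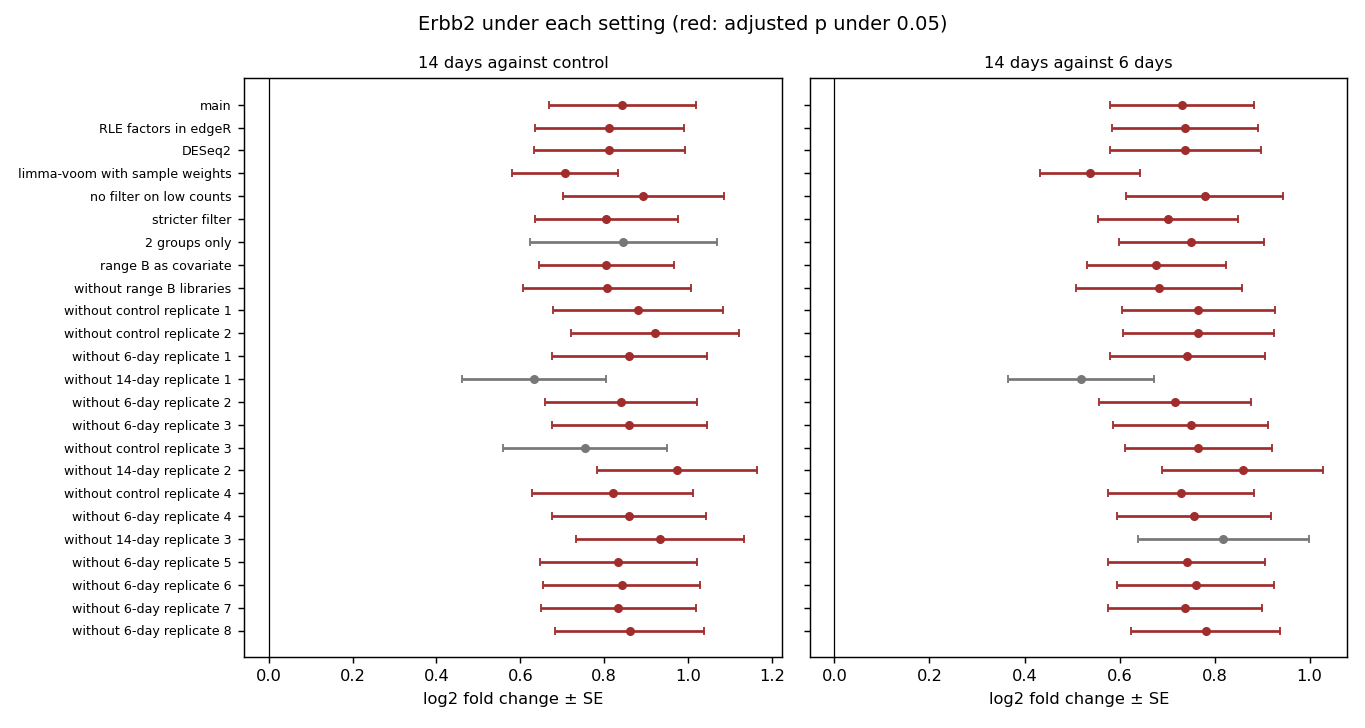
Log2 fold change of Erbb2 at 14 days against control and at 14 against 6 days under each processing setting and each left-out library. Bars show the SE, and red points mark adjusted p under 0.05. All values lie above 0, from 0.63 to 0.97 against control and from 0.52 to 0.86 against 6 days.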

How the data were processed

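PolyA RNA of sorted tumour cells was measured in 15 libraries. Per the file headers, the authors counted uniquely aligned reads per gene (deposited counts), and they divided these by gene length and library size factor to make the deposited RPKM. Reads were aligned with GSNAP to GRCm38, per the submitters' processing notes; for versions, annotation and strand handling nothing is given in the sources used, and reads of overlapping genes cannot be told apart.

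Groups come from the treatment label, with replicate numbers in accession order. Counts were tested with edgeR 4.0.16 under R 4.3.3, with TMM factors, the filterByExpr filter and the quasi-likelihood F test, in 1 fit over 15 libraries with no covariate. It tested 18751 genes with a common biological coefficient of variation of 0.579, and p-values were adjusted over all of them (Benjamini-Hochberg, called under 0.05). Total counts ran from 27336935 to 256569828. Every pair of libraries differed beyond sampling noise (of 105 pairs, the lowest chi-square per degree of freedom was 52.82). RPKM served for levels only.

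The members, lists and tests were chosen with earlier results of these data known. Named genes are all members, the called genes of each pathway list, every gene of lists of 6 or fewer, and the 3 genes most like Erbb2 by Pearson r among established names with a mean of at least 10 CPM. Other genes (Dusp6, Etv4, Adam10, Adam17, neighbours of Erbb2 and cell type markers) were named after their values were seen, or as examples of a list. Alternatives were RLE factors, other filters, DESeq2 1.42.0, limma-voom 3.58.1 with sample weights, fits of 2 groups, identifier ranges and each library left out. Fits were tested on simulated data. Promoter windows came from a RefSeq table, in which 7 of 10 members had an entry. Other steps used matplotlib 3.10.9, scipy 1.17.1, pandas 2.3.3 and numpy 2.4.6 in Python 3.11.15.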

Additional observations from a re-analysis of the deposited data

Results flagged for a closer look

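In the control group, Ereg was highest in replicate 1, at 0.434 CPM (16 counts), while the other 3 libraries had 0 counts. In the 6-day group Ereg was highest in replicate 7, at 0.401 CPM, and the next library had 0.112 CPM. Each of these libraries stood apart from the rest of its group by Dixon's criterion, which was applied to 20 groups and met by 2. For normally spread values chance meets it in about 1 of 20 groups, and levels at the floor are not spread in that way. With 0 counts in the other 3 controls, any count in control replicate 1 would meet it, so no conclusion is drawn.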

How the results depend on the processing

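Of 624 fold changes of members under other settings, 613 kept their side of the threshold, 6 passed it only there and 5 no longer passed it. The sign differed from the reported one in 36, none of them called in either setting, and these touched 14 of 27 member comparisons (Egf at 6 days ran from -0.50 to 1.15, Areg at 14 days against control from -1.22 to 2.49 and Tgfa at 6 days from -0.61 to 0.95). For Erbb2 the fold change at 14 days against control was called under 20 of 23 alternatives and at 14 against 6 days under 21 of 23. The alternatives that ended it are given beside its values. With range B as a covariate, added after the data were seen, it was 0.81 (adjusted p = 0.00447) and 0.68 (adjusted p = 0.0107). Other members called under an alternative were Erbb3 at 14 against 6 days (DESeq2 0.89, adjusted p = 0.0316; limma-voom 0.47, adjusted p = 0.049; without control replicate 4 0.88, adjusted p = 0.0373), Erbb3 at 6 days against control within range B (-1.32, adjusted p = 0.0367, 1 control), Egfr at 14 days against control (limma-voom 0.90, adjusted p = 0.00776) and Btc at 14 against 6 days (DESeq2 1.77, adjusted p = 0.0461).

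Members called numbered 0 at 6 days (1 within range B; 0 to 0 with a library left out), 1 at 14 days against control (limma-voom 2, 2 groups alone 0; 0 to 1 with a library left out) and 1 at 14 against 6 days (DESeq2 3, limma-voom 2; 0 to 2 with a library left out). Genes called at 6 days numbered 236, against 846 in DESeq2, 826 in limma-voom, 866 with the range covariate and 468 within range A, and 69 to 308 with a library left out. At 14 days against control they numbered 1238, against 2752 in DESeq2, 4205 in limma-voom, 374 with the 2 groups alone, 3196 with range B as a covariate and 2330 without range B, and 376 to 1438 with a library left out. At 14 against 6 days they numbered 730, against 2609 in DESeq2, 4693 in limma-voom, 460 with no filter, 2036 with range B as a covariate and 1322 without range B, and 3 to 1138 with a library left out (3 without 14-day replicate 1, 43 without 14-day replicate 3). The causes were not tested. No paired analysis was possible because the labels carry no replicate numbers. Depth limits Ereg, Areg and Erbb4, whose levels were close to the floor in many libraries. No 14-day library had 0 counts of these genes, and the libraries of range A had the lowest total counts.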

Other observations

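Low ligands were looked at in a list of 6 (Areg, Ereg, Btc, Epgn, Nrg1 and Nrg2), picked without a set cutoff. Of these 6, 3 (Ereg, Nrg1 and Nrg2) had their highest levels in the same 3 libraries. These were control replicate 1, 6-day replicate 7 and 14-day replicate 1, 1 from each group and each identifier range. Nrg1 had 15.5 CPM in control replicate 1, 9.48 CPM in 6-day replicate 7 and 6.89 CPM in 14-day replicate 1. Nrg2 had 1.87, 1.68 and 2.03 CPM in these libraries in the same order, and their summed suprabasal markers were 2018, 1707 and 7000 CPM, each the highest of its group. The other 3 did not share this set: the highest libraries were control replicate 1 and 6-day replicates 6 and 7 for Areg, 14-day replicate 1 and control replicates 1 and 2 for Btc, and 14-day replicate 1 and 6-day replicates 6 and 7 for Epgn. Egf, also low but not among the 6, was highest in control replicate 2 and 6-day replicates 5 and 7 (4.37, 3.50 and 2.47 CPM). In control replicate 1 Egf had 0.60 CPM. The pattern was noticed in the data and was not tested.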
